A study of Mus musculus with 14 samples.

Results

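Type I interferon-stimulated genes were followed in the livers of mice with concanavalin A (ConA) hepatitis. The group was a list of 36 genes chosen by name, of which 34 were found among the 17656 genes of each table. Mx1 and Mx2 were not analysed here. Liver RNA of 14 mice was measured, 1 library per mouse, in 4 groups: WT saline (3 mice), KO saline (3), WT ConA (4) and KO ConA (4). KO stands throughout for mice labelled as knockouts of Ythdf1, a reader of N6-methyladenosine on RNA. ConA mice received 8 mg/kg by tail vein and the others saline, at 8 weeks of age, and every liver was taken 8 h later. Per the study the mice were on a C57BL/6 background, and the knockout was made with CRISPR/Cas9 and is not confined to 1 cell type.

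Interferons are secreted proteins that warn cells of infection and inflammation. Type I interferons (IFN-alpha and IFN-beta) bind the receptor of Ifnar1 and Ifnar2, whose kinases Jak1 and Tyk2 activate transcription factors such as Stat2. With Irf9 this forms a complex that binds the interferon-stimulated response element (ISRE) before its target genes. Type II interferon (IFN-gamma), made by activated T and NK cells, acts through a receptor of its own and the gamma-activated site (GAS), and many genes answer to both. ConA is a plant lectin that activates T cells, and its hepatitis is known for a strong IFN-gamma response.

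Sequence shared by the members was looked at first, because the ISRE is the element that names the response. The RefSeq promoter table of build GRCm38.p6 held 25 of the 34 genes. Its core, taken as GAAA, 2 bases of any kind and GAAA again, read on either strand, occurred in the 250 bases before the start of 10 of these 25 genes, or 40.0%, against 3.46% of the 27025 genes in the table. It was found in Ifit1, Ifit3, Ifit3b, Oas1a, Oas1g, Oas3, Isg15, Rsad2, Bst2 and Trim30a. The core was not particular to the members. Of the lists described further on, it occurred in 23 of 53 further interferon-stimulated genes (43.4%). The same core was in 5 of 5 guanylate-binding proteins and 6 of 7 immunity-related GTPases held by the promoter table. The GAS core TTCNNNGAA, which reads the same on both strands, was present in 5 of the 25 genes, against 8.13% of the table. A match describes these letters only, and 3 genes counted with any of several windows. The windows of 5 genes with the core and of Ifi35, without it, are shown 5′ to 3′ in the direction of the gene. Capitals mark the ISRE core, and matches may overlap one another.
Isg15 (chr4:156200819-156201068, minus strand): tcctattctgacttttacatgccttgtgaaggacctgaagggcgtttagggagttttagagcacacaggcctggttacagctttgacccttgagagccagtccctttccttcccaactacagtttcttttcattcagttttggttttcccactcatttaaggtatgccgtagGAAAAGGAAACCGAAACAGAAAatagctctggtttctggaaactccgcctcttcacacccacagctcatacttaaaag
Ifit1 (chr19:34640639-34640888, plus strand): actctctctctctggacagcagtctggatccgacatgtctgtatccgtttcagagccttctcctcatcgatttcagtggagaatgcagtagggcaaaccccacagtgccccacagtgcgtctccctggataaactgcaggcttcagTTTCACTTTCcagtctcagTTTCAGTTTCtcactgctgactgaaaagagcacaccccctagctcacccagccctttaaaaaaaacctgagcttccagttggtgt
Rsad2 (chr12:26456453-26456702, minus strand): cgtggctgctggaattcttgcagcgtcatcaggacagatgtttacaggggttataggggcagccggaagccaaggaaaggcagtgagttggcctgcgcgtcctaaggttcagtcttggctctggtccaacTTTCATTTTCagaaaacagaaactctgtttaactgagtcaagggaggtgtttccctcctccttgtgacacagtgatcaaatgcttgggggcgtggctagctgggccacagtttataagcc
Bst2 (chr8:71537473-71537722, minus strand): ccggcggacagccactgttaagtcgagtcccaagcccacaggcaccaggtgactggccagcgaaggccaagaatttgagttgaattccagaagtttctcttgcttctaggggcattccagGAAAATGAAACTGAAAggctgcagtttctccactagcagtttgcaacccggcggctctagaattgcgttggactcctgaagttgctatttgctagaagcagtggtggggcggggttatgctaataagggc
Trim30a (chr7:104465194-104465443, minus strand): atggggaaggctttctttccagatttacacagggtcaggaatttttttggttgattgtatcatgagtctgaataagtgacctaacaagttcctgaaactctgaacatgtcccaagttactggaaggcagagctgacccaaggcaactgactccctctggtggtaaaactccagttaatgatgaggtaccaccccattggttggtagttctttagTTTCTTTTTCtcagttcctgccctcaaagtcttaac
Ifi35 (chr11:101448162-101448411, plus strand): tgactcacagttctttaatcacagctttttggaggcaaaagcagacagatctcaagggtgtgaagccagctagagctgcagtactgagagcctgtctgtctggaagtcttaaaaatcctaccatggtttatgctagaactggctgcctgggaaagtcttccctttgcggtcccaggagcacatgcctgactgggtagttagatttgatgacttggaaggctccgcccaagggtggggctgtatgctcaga

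In Isg15 the core began 78, 72 and 66 bases before the start, as 3 overlapping matches. Ifit1 held a pair of separate matches, 104 and 85 bases before the start, and its neighbours Ifit3 (156 and 122 bases) and Ifit3b (188 and 154 bases) held a similar pair. Rsad2 had a single match at 120 bases. Ifit1, Ifit2, Ifit3 and Ifit3b lie side by side on chromosome 19 between 34550550 and 34650009. The members with the core had a median log2 fold change after ConA of 1.21 in WT and 1.65 in KO livers, and the 15 members with a window but no core had 1.45 and 1.79.

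Values are TPM, a share of 1000000 transcripts that already allows for transcript length, so levels can be set side by side between genes. The tables carry no read counts, so error is judged from how far mice of a group differ. The hepatocyte markers were abundant in all libraries but lower after ConA. Summed over 10 genes, they had 127358 to 145977 TPM (WT) and 123414 to 145282 TPM (KO) with saline. After ConA they had 75850.4 to 100381 TPM (WT) and 73179.7 to 85265 TPM (KO). WT saline replicates 2 and 3 were closer to each other (median size of their log2 ratio 0.0876) than any of the other 17 replicate pairs (0.142 to 0.465), so results that rest on them were also computed with these libraries averaged. WT ConA replicate 3 and KO ConA replicate 3 had lower values in longer transcripts than the other libraries of their groups, as described further on. The level of Ythdf1 ranged from 12.0 to 13.9 TPM (WT saline) and from 18.4 to 20.8 TPM (KO saline), and after ConA from 18.7 to 25.6 TPM (WT) and from 15.5 to 26.2 TPM (KO). It was thus not lower in the libraries labelled KO, and was called higher in them with saline (0.53, adjusted p 0.0181). Every direction given for KO rests on the labels, which these gene-level values do not bear out. Whether the deleted part of the gene is still read cannot be seen in a value for the whole gene.

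**Figure D1:**
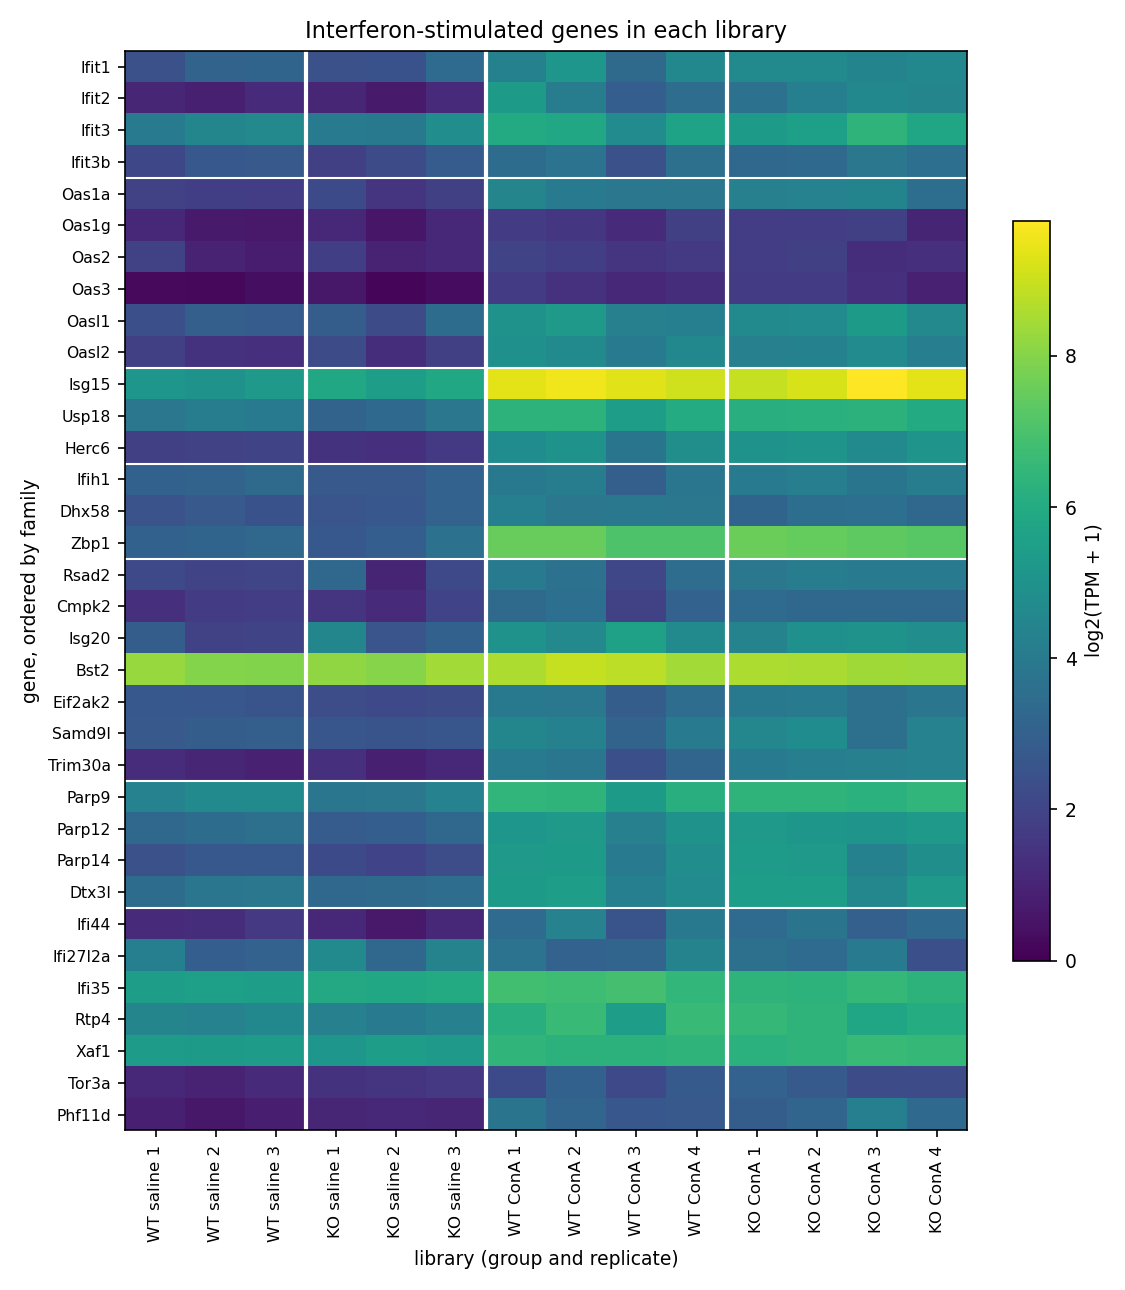
Level of each of the 34 genes (rows, grouped by family) in each of the 14 libraries (columns, by group and replicate), as log2(TPM + 1) in colour. Most rows are brighter in the 8 ConA libraries, Isg15 most of all, while Oas2 and Ifi27l2a change little.

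The interferon-stimulated genes rose with ConA in both genotypes. Their mean log2(TPM + 1) was 2.83, 2.80 and 2.86 in the WT saline livers and 2.89, 2.56 and 3.0 in the KO saline livers. After ConA it was 4.80, 4.78, 4.0 and 4.53 in WT and 4.64, 4.72, 4.66 and 4.54 in KO livers. Every ConA library thus lay above every saline library, and WT ConA replicate 3 was the lowest of the ConA libraries. The group means were 2.83 ± 0.03 (SD, n = 3), 2.81 ± 0.23 (n = 3), 4.53 ± 0.37 (n = 4) and 4.64 ± 0.08 (n = 4). The differences were 1.70 in WT and 1.83 in KO livers. In bulk liver RNA, more RNA per cell and more cells that make it cannot be told apart.

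**Figure D2:**
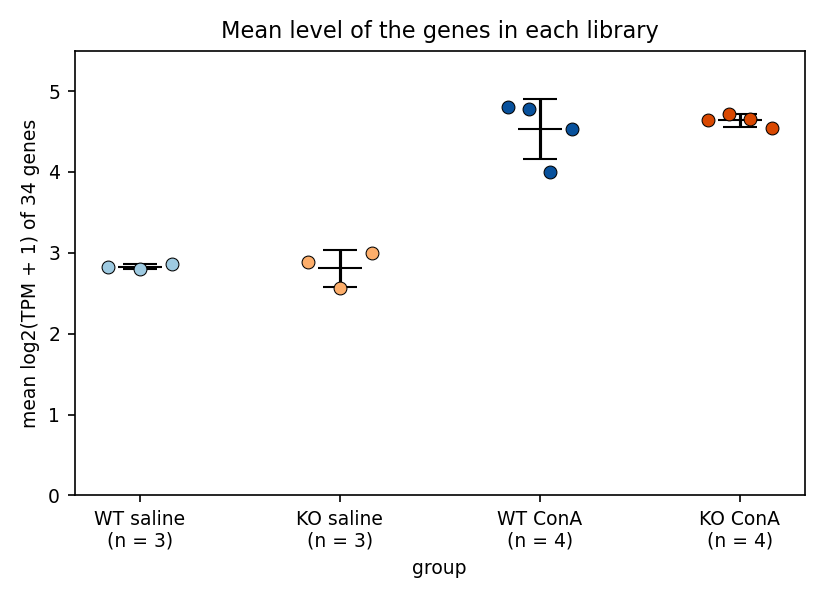
Mean log2(TPM + 1) of the 34 genes in each library (points), with group mean and SD (black), for the 4 groups. The WT ConA and KO ConA libraries overlap, and WT ConA replicate 3, at 4.0, is the lowest of them.

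Each gene was then tested by itself with limma on the log2(TPM + 1) scale. A call required an adjusted p (Benjamini-Hochberg, over all genes tested) under 0.05. Fold changes on this scale are understated for genes of low TPM. In WT ConA against WT saline, 30 of 34 members were called higher and 0 lower, where 22.0% of the 10768 genes tested were called higher and 53.0% in either direction. The median log2 fold change was 1.46 for the members and -0.07 for all genes tested. In KO ConA against KO saline, 31 of 34 were called higher and 0 lower, with 33.9% of 10988 genes called higher and 64.6% in either direction, and medians of 1.80 and 0.07. In all, 29 members were called higher in both genotypes. In each genotype 29 members had every ConA library above every saline library, which 23.3% of genes did in WT and 32.8% in KO livers.

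Markers of cell types moved at the same time. Of the 10 hepatocyte markers, whose sums are given above, 6 were called lower and 1 higher in WT livers. In KO livers 8 were called lower and 1 higher, where 31.0% (WT) and 30.7% (KO) of genes tested were called lower. The summed level of 10 neutrophil markers was 9.61 to 11.8 TPM (WT) and 5.44 to 11.0 TPM (KO) with saline and 329 to 582 and 429 to 990.5 TPM after ConA. The 7 monocyte markers had 9.10 to 19.0 and 15.3 to 16.6 TPM with saline and 37.4 to 71.4 and 35.2 to 108 TPM after ConA. The 9 Kupffer cell markers together ranged from 131 to 221 and 62.1 to 141 TPM in saline livers and from 24.3 to 91.2 and 19.2 to 83.1 TPM after ConA. The 8 plasmacytoid dendritic cell markers summed to 2.30 to 2.91 (WT) and 2.04 to 5.63 TPM (KO) with saline and to 5.04 to 10.5 and 14.2 to 27.4 TPM after ConA. Of the pair of these markers that could be tested, 1 was called higher after ConA in each genotype and 1 in KO ConA against WT ConA. Siglech reached at most 0.360 TPM in any library, and Ccr9, Cox6a2, Pacsin1 and Runx2 at most 0.260 TPM. The sum thus rests on Tcf4, Klk1 and Ly6d. The 9 T cell markers summed to 1.61 to 2.13 and 2.74 to 3.30 TPM with saline and 3.90 to 5.77 and 6.51 to 9.38 TPM after ConA. Of these, Cd4 and Cd5 reached at most 0.270 TPM. The 8 NK cell markers summed to 1.37 to 1.88 and 1.40 to 2.15 TPM and then 2.58 to 9.65 and 4.93 to 12.0 TPM. Ncr1, Klrb1c, Klra8, Klre1 and Eomes reached at most 0.460 TPM in any library, so the NK sum rests on Gzma, Prf1 and Nkg7. The part of these cells in the rise was not tested.

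**Figure D3:**
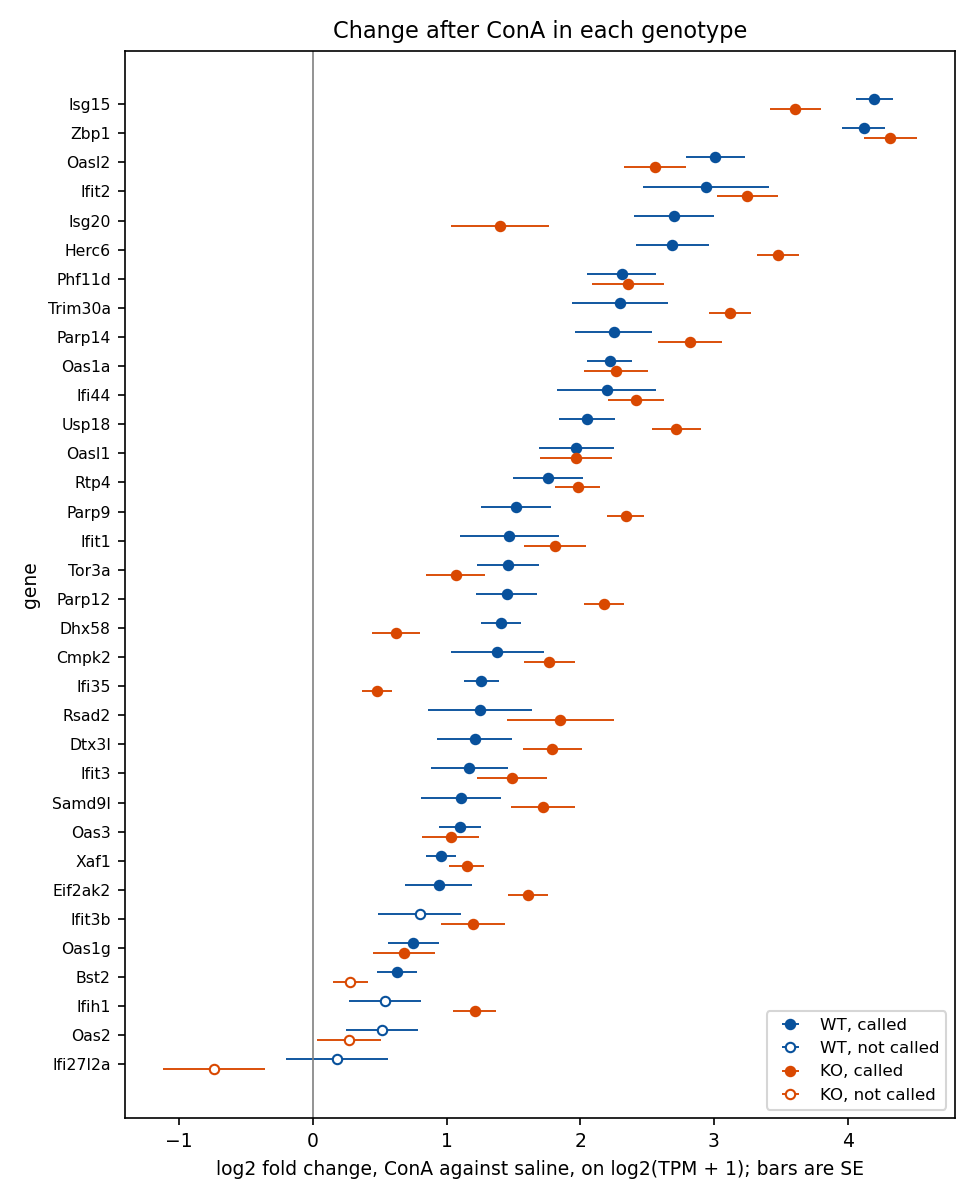
Log2 fold change of the 34 genes after ConA in WT (blue) and KO (orange) livers, with SE bars, ordered by the change in WT; filled points were called. Isg15 and Zbp1 had the largest changes in both genotypes, and Ifi27l2a was called in neither.

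The ISG15 system showed large rises. Isg15 encodes a ubiquitin-like protein that is joined to other proteins, Herc6 is a ligase that attaches it in mice and Usp18 removes it and damps the type I receptor. Isg15 was at 34.4, 31.65 and 37.1 TPM in WT saline and 55.6, 42.8 and 57.4 TPM in KO saline livers. After ConA it was at 664, 757, 644 and 545 TPM in WT and 483, 585, 884 and 675 TPM in KO livers. The saline and ConA livers were far apart in both genotypes, with an 18.4-fold rise in WT (log2 fold change 4.20, SE 0.14, adjusted p 1.10e-07) and a 12.2-fold rise in KO (3.61, SE 0.19, adjusted p 9.39e-08). Isg15 alone made up 5.67% to 8.93% of the summed TPM of the 34 genes in saline livers and 25.2% to 38.9% after ConA.

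Herc6 was at 2.62, 2.78 and 3.01 TPM in WT saline, 1.67, 1.58 and 2.14 TPM in KO saline, 26.0, 31.6, 13.1 and 27.9 TPM in WT ConA and 31.2, 32.3, 24.8 and 32.7 TPM in KO ConA livers. Its log2 fold change was 2.69 (SE 0.27, adjusted p 3.83e-05) in WT and 3.48 (SE 0.16, adjusted p 2.74e-08) in KO livers. Of its 50-base stretches 76.2% were found in no other gene. Usp18 also rose in both, by 2.05 and 2.72 on the log2 scale.

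Among the nucleic acid sensors, Zbp1 stood out. ZBP1 senses Z-form nucleic acids and can set off necroptosis, IFIH1 (MDA5) senses long double-stranded RNA, and DHX58 (LGP2) adjusts its signaling. Zbp1 was at 7.19, 7.81 and 9.02 TPM in WT saline and 5.54, 6.60 and 11.6 TPM in KO saline livers. After ConA it was at 179.7, 181, 133 and 134 TPM in WT and 193, 175, 162 and 152 TPM in KO livers. The groups did not overlap, and the rise was 17.4-fold in WT (4.12 on the log2 scale, SE 0.16, adjusted p 2.95e-07), and the log2 fold change in KO was 4.32 (SE 0.20, adjusted p 3.94e-08).

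Ifih1 rose in KO livers (1.21, adjusted p 5.84e-05) and was not called in WT (0.54, adjusted p 0.116). In WT ConA replicate 3 it had 6.70 TPM, where the remaining mice of that group had 13.4 to 16.4 TPM. Left out, Ifih1 was called in WT as well (0.80, adjusted p 9.76e-04). The interaction was not called (0.67, adjusted p 0.209). Dhx58 rose in both genotypes and is described with the genotype comparison.

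The OAS family makes the 2′,5′-oligoadenylates that switch on RNase L, and Oasl1 and Oasl2 are relatives of these enzymes. Of 6 genes, 5 were called higher in each genotype. Oasl2 was at 2.64, 1.69 and 1.52 TPM in WT saline, 3.72, 1.45 and 2.66 in KO saline, 29.2, 23.9, 15.6 and 23.0 in WT ConA and 18.0, 18.5, 25.3 and 17.4 TPM in KO ConA livers. It rose by 3.01 (SE 0.22, adjusted p 7.55e-06) and 2.56 (SE 0.23, adjusted p 3.42e-06) on the log2 scale. Oasl1 and Oas1a rose by 1.97 and 2.22 in WT livers. Oas3 (1.10) and Oas1g (0.75) were called at 2.64 TPM or less in every WT ConA library. Oas2 was not called in WT (0.52, adjusted p 0.128) or KO livers (0.27, adjusted p 0.341), and in WT saline replicate 1 it had 2.75 TPM, within the range after ConA. Without that library it was called in WT (0.87, adjusted p 0.00720). Only 42.4% of the 50-base stretches of Oas1a and 45.3% of those of Oas1g were found in no other gene, so their values are uncertain.

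The IFIT proteins bind foreign RNA and block its translation. Ifit2 was at 1.07, 0.83 and 1.33 TPM in WT saline, 1.10, 0.63 and 1.26 in KO saline, 39.6, 17.0, 6.65 and 10.2 in WT ConA and 11.6, 18.0, 22.8 and 20.8 TPM in KO ConA livers. It rose by 2.94 (SE 0.47, adjusted p 7.04e-04) in WT and 3.25 (SE 0.23, adjusted p 6.27e-07) in KO livers, and the WT ConA mice were the more spread. Ifit1 and Ifit3 rose in both genotypes, by 1.47 and 1.17 in WT and 1.81 and 1.49 in KO livers. Ifit3b rose in KO livers (1.20, adjusted p 0.00104) but was not called in WT (0.80, adjusted p 0.0532). Without WT ConA replicate 3 it was called there too (1.09, adjusted p 0.00104), and over the alternatives its adjusted p ran from 0.00104 to 0.190. Ifit3 and Ifit3b share much sequence, with 48.8% and 55.0% of stretches found in no other gene.

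Of the 7 other antiviral effectors, all rose in WT livers and 6 in KO livers. Rsad2 (viperin, which makes a chain-terminating nucleotide) was at 3.45, 3.02 and 3.14 TPM in WT saline, 8.91, 1.01 and 3.48 in KO saline, 15.3, 11.7, 3.25 and 10.3 in WT ConA and 13.6, 16.3, 15.2 and 15.3 TPM in KO ConA livers. WT ConA replicate 3 lay within the WT saline range. The WT call (1.25, adjusted p 0.0232) was lost in 8 of 16 alternatives, among them the average of WT saline replicates 2 and 3 and leaving out WT saline replicate 1, 2 or 3 or WT ConA replicate 1, 2 or 4.

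Isg20, an RNA exonuclease, was at 6.38, 2.73 and 3.01 TPM in WT saline and 21.8, 4.97 and 7.25 TPM in KO saline livers. After ConA it was at 30.4, 23.2, 47.6 and 24.6 TPM in WT and 19.6, 28.8, 32.0 and 27.0 TPM in KO livers. Its rise was 2.70 (adjusted p 7.71e-05) in WT and 1.40 (adjusted p 0.00672) in KO livers, where KO saline replicate 1 overlapped the ConA mice. Trim30a, a negative regulator of innate signaling, rose by 2.30 and 3.12. Eif2ak2 (PKR, a kinase that halts translation), Samd9l and Cmpk2, the neighbour of Rsad2 on chromosome 12, rose by 0.94 to 1.38 in WT and 1.61 to 1.77 in KO livers. Bst2 (tetherin, which holds budding virus at the membrane) had the highest level of the list in saline livers, 246 to 306 TPM in WT. It reached 344 to 483 TPM in WT ConA livers (0.63, adjusted p 0.00709) and was not called in KO livers (0.28, adjusted p 0.0774), except without KO saline replicate 3 (0.39, adjusted p 0.0212).

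The 4 ADP-ribosylation genes rose together in both genotypes. Parp9 and its partner Dtx3l form an ADP-ribosyl and ubiquitin ligase complex, and Parp12 and Parp14 add single ADP-ribose units. Parp14 was at 4.44, 5.55 and 5.54 TPM in WT saline, 3.57, 2.91 and 3.94 in KO saline, 38.4, 39.8, 15.7 and 26.5 in WT ConA and 41.5, 38.45, 18.8 and 28.5 TPM in KO ConA livers. It rose by 2.25 (adjusted p 1.90e-04) in WT and 2.82 (adjusted p 2.86e-06) in KO livers, and the others by 1.21 to 1.52 and 1.79 to 2.34. Parp9 and Dtx3l overlap on opposite strands of chromosome 16, and whether reads were counted by strand is not given in the sources used here.

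Of the remaining 7 interferon-induced genes, 6 rose in each genotype. Phf11d (2.31 and 2.36) and Ifi44 (2.20 and 2.42) rose most. Rtp4 rose by 1.76 and 1.98, Tor3a by 1.46 and 1.07 and the apoptosis-linked Xaf1 by 0.96 and 1.15. Ifi27l2a was the exception, at 17.7, 6.59 and 7.55 TPM in WT saline and 12.1, 7.53, 8.16 and 19.8 TPM in WT ConA livers. In KO livers it was at 24.1, 8.91 and 19.7 TPM with saline and 11.25, 9.78, 15.3 and 4.31 TPM with ConA. The groups overlapped in both genotypes (0.18, adjusted p 0.715, and -0.74, adjusted p 0.112). Without KO saline replicate 2 it was called lower in KO livers (-1.14, adjusted p 0.0210).

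The effect of the genotype after ConA was the next question. In KO ConA against WT ConA, limma called 0 of 34 members, and 3 had an unadjusted p under 0.05. Of the 10519 genes tested 0.428% were called, 0.342% higher and 0.0856% lower. The log2 fold changes of the members ran from -0.60 to 0.86, with 24 above 0 and 10 below. Of all genes tested 6048 were above 0 and 4471 below. The median was 0.12 for the members and 0.05 over all genes. Without WT ConA replicate 3 the median was -0.05 and limma again called 0. The 95% interval of the difference lay within 1 log2 unit either way for 28 of the 34 members, and the widest was that of Ifit2 (-0.70 to 1.20). For Isg15 it was -0.42 to 0.39 and for Zbp1 -0.19 to 0.46.

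The groups did not overlap for 2 members. Every KO ConA library was higher for Trim30a, as were 6.37% of genes, and every one was lower for Dhx58, as were 4.11% of genes. Trim30a was at 15.6, 13.3, 4.18 and 8.07 TPM in WT ConA and 15.8, 17.4, 18.2 and 19.2 TPM in KO ConA livers (0.86, SE 0.31, 95% interval 0.18 to 1.54, adjusted p 0.201). Dhx58 was at 17.8, 13.7, 14.2 and 13.7 TPM in WT ConA and 7.80, 10.6, 10.9 and 8.79 TPM in KO ConA livers (-0.60, SE 0.16, 95% interval -0.95 to -0.24, adjusted p 0.109). Neither was called, although a fit of all 14 libraries called Dhx58 (adjusted p 0.0286; 0.0286 to 0.242 over the alternatives). With saline, Dhx58 ranged from 4.59 to 5.61 TPM (WT) and from 5.02 to 7.35 TPM (KO), and it rose by 1.41 in WT (adjusted p 5.56e-05) and 0.62 in KO livers (adjusted p 0.0103).

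The interaction of genotype and ConA, fitted over all 14 libraries, tests if WT and KO livers changed unequally. Of the 34 members 1 was called, Ifi35, where 4.78% of the 11327 genes tested were called. Ifi35, the partner of Nmi in a cytoplasmic complex, was at 43.0, 45.0 and 43.6 TPM in WT saline and 59.7, 55.4 and 62.5 TPM in KO saline livers. After ConA it was at 113, 107, 117 and 89.2 TPM in WT and 81.9, 79.8, 91.0 and 79.2 TPM in KO livers. Thus the KO livers started above the WT livers and ended lower on average, with 1 WT ConA liver inside the KO range. The rise was 1.26 (adjusted p 4.94e-05) in WT and 0.48 (adjusted p 0.00266) in KO livers, and the interaction was -0.78 (SE 0.16, adjusted p 0.0258). It was not called with WT saline replicates 2 and 3 averaged, nor without WT saline replicate 2 or 3, KO saline replicate 1 or 2 or KO ConA replicate 4 (adjusted p up to 0.0930). The median of all genes was 0.14 in the interaction as deposited and 0 after rescaling of the libraries, and Ifi35 kept its call after rescaling.

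After Ifi35 the lowest adjusted p was that of Dhx58 (-0.79, adjusted p 0.0573). Parp9 (0.82, 0.122), Parp12 (0.72, 0.127), Herc6 (0.79, 0.142) and Isg20 (-1.30, 0.153) followed, and none of these was called. Of the 34 members 22 had an interaction above 0 and 12 below, and of all 11327 genes tested 7040 were above 0 and 4287 below. The 4 ADP-ribosylation genes had interactions of 0.57 to 0.82 with adjusted p from 0.122 to 0.397. Ube2l6, the conjugating enzyme that hands on ISG15, is no member but was called (-0.69, adjusted p 0.0231). It was the 1 call among 53 further interferon-stimulated genes tested, where 4.78% of all genes tested were called. Its saline livers ranged from 76.5 to 88.4 TPM (WT) and from 96.7 to 104 TPM (KO), and its ConA livers from 214 to 241 TPM (WT) and from 163 to 183 TPM (KO).

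Among the saline livers, 6 of the 33 members tested were called in KO against WT, 3 higher and 3 lower, where 19.2% of the 10459 genes tested were called, 6.30% higher and 12.9% lower. Oas3 was not tested because of its low TPM. Isg15 (0.57, adjusted p 0.0283), Ifi35 (0.42, adjusted p 0.0211) and Tor3a (0.44, adjusted p 0.0355) were higher. Tor3a was at 1.15, 0.94 and 1.27 TPM in WT and 1.71, 1.81 and 2.12 TPM in KO saline livers, and the values of Isg15 and Ifi35 are given above. Herc6 (-0.45, adjusted p 0.0341), Eif2ak2 (-0.37, adjusted p 0.0335) and Parp14 (-0.47, adjusted p 0.0411) were lower. Eif2ak2 was at 5.45, 5.26 and 4.79 TPM in WT and 3.95, 3.51 and 3.88 TPM in KO saline livers.

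The groups did not overlap for 11 members, the 6 called among them. Every KO saline library was higher for Isg15, Ifi35, Tor3a and Phf11d (4 members, against 13% of genes, 1364 of 10459) and lower for Herc6, Eif2ak2, Samd9l, Parp12, Parp14, Ifi44 and Rtp4 (7 members, against 29.2% of genes). With WT saline replicates 2 and 3 averaged, 0 of the 6 were called, and 0 without WT saline replicate 2, WT saline replicate 3 or KO saline replicate 1. Rescaled libraries gave 3 higher and 1 lower, as Eif2ak2 and Parp14 lost their calls. The 7 liver endothelial markers had sums of 15.2 to 25.4 TPM (WT saline) and 26.4 to 45.4 TPM (KO saline), without overlap, and 3 of the 6 tested were called higher. The summed Kupffer cell markers, given above, overlapped, and 0 of 9 were called, with 3 at an unadjusted p under 0.05 in limma. The part of these cells in the differences was not tested.

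The genes upstream of the response were read from lists of the pathway. Of the 21 interferon ligands, 5 were in the tables. Ifnb1 reached at most 0.200 TPM, and Ifna4, Ifnk and Ifnz stayed at or under 0.130 TPM in every library, all too low to test. Ifng, the type II interferon, was at 0 to 0.140 TPM in saline livers, so it reached the level required for a test only in ConA libraries. After ConA its range was 1.01 to 3.86 TPM (WT) and 5.02 to 12.1 TPM (KO). It rose in WT (1.52, adjusted p 0.00112) and KO livers (2.93, adjusted p 2.08e-06). The KO ConA libraries were all above the WT ConA libraries, but neither that difference (1.38, adjusted p 0.0674) nor the interaction (1.41, adjusted p 0.0503) was called. The summed T cell markers, given above, were also higher in every KO ConA than in every WT ConA library. They were higher in every KO saline than in every WT saline library as well. Only 1 of the 9 T cell markers could be tested in KO ConA against WT ConA, and it was not called (0.44). The NK cell markers overlapped after ConA, and the part of T and NK cells in the level of Ifng was not tested.

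Of 6 receptor genes 5 were tested. The type I receptor chain Ifnar2 fell in both genotypes (-0.45 and -0.75), and Ifnar1 was not called. Of the type II receptor, Ifngr2 rose more in KO livers (1.88) than in WT livers (0.74), with an interaction of 1.14 (adjusted p 0.0185). The KO saline livers started lower, at 5.89 to 8.40 TPM against 12.1 TPM or more in WT (-0.81, adjusted p 0.0155).

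Of 12 kinases and transcription factors, 6 rose and 1 fell in WT livers, and 8 rose and 1 fell in KO livers. Over all genes tested 22.0% were called higher and 31.0% lower in WT, and 33.9% and 30.7% in KO livers. The same shares apply to the lists that follow. Irf8 (4.64 in WT, 4.78 in KO), Irf1 (3.42 and 4.49) and Irf7 (2.34 and 2.08), the amplifier of type I signaling, rose in both genotypes. Stat2 rose in WT livers (1.20) and had 0.51 in KO livers, not called. Irf9 rose in both (0.47 and 0.95), and Irf3 fell in both (-0.49 and -0.89). Irf1 differed between the genotypes in the interaction (1.06, adjusted p 0.0307), with 15.3 to 17.9 TPM in KO saline against 22.7 to 27.9 TPM in WT saline livers.

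In the induction pathway 6 of 10 tested genes rose and 1 fell in WT livers, and 7 rose and 1 fell in KO livers. Ikbke, a kinase that activates interferon regulatory factors, rose by 3.86 and 2.92, with an interaction of -0.93 (adjusted p 0.0280), and the RNA sensor Tlr7 fell by 0.83 in WT and by 0.69 in KO livers on the log2 scale. Of 12 inhibitors 8 rose in WT and 10 in KO livers, and 0 fell. The cytokine signaling inhibitors Socs1 (6.05 and 5.90) and Socs3 (3.31 and 4.38) and the nucleotide hydrolase Samhd1 (4.48 and 4.77) rose most. Ptpn2, a phosphatase acting on JAK and STAT proteins, had an interaction of 1.18 (adjusted p 0.0355). The interactions of Ube2l6, Ifngr2, Irf1, Ikbke and Ptpn2 use the same WT saline libraries as that of Ifi35 and were not computed under the alternatives. The interaction fit called 4.78% of all genes tested.

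Genes known to answer mainly to IFN-gamma were set beside the members. Among the guanylate-binding proteins, GTPases that attack intracellular microbes, 9 of 9 tested rose in each genotype, with a median log2 fold change of 4.10 in WT and 4.96 in KO livers. The immunity-related GTPases had medians of 2.74 (10 of 10 called higher) and 3.73 (9 of 9). The CXCR3 ligands Cxcl9 and Cxcl10, which draw activated T cells, rose by 8.36 and 6.82 in WT and 8.87 and 7.39 in KO livers. Gbp2 went from 3.09 to 3.92 TPM in WT saline to 464 to 1141 TPM in WT ConA livers. It was among the 3 of its list with the smallest limma p. Of the members, Ifit1 went from 4.32 to 7.92 TPM to 9.54 to 34.5 TPM in these groups. Zbp1 went from 7.19 to 9.02 TPM to 133 to 181 TPM. In WT livers Isg15 (4.20) and Zbp1 (4.12) rose about as much as the median guanylate-binding protein. The immunity-related GTPases ranged from 0.66 to 7.18 there. A further 57 interferon-stimulated genes in the tables had medians of 1.11 (36 of 52 tested higher, 1 lower) and 1.16 (40 of 51 higher, 3 lower). The difference between the lists was not tested.

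**Figure D4:**
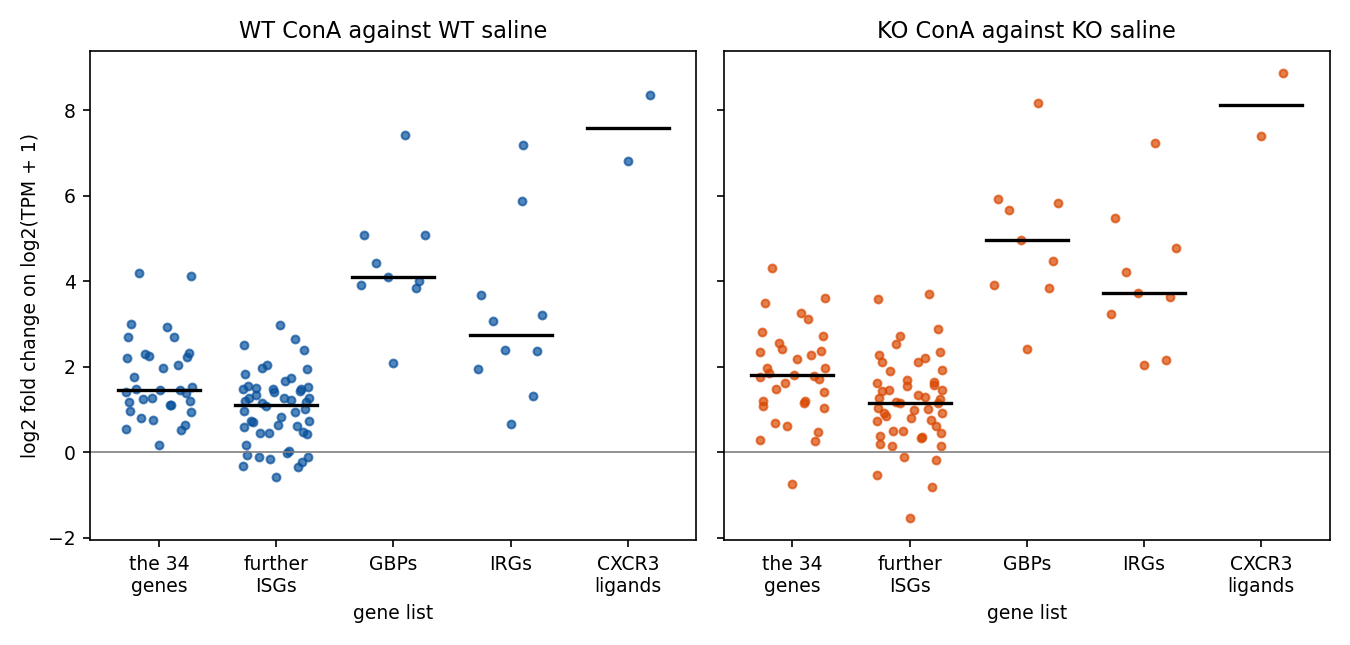
Log2 fold change after ConA of each tested gene (points) and list median (black lines) for the 34 genes, further interferon-stimulated genes (ISGs), guanylate-binding proteins (GBPs), immunity-related GTPases (IRGs) and CXCR3 ligands, in WT (left) and KO livers (right). The medians of the 34 genes, 1.46 and 1.80, lie below those of the last 3 lists.

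In the WT ConA group, replicate 3 stood apart. It was the lowest WT ConA library for 26 of the 34 members and the highest for 2, Isg20 and Ifi35. All 23 members with a transcript of 2000 bases or more were below the mean of the other WT ConA libraries, with a median difference of -0.99 on the log2 scale. The 11 shorter members had a median of -0.29, and Isg15 (756 bases) was at -0.01. Over 9953 genes this library had a median difference of -0.02 among the shortest transcripts (up to 2202 bases) and -0.53 among the longest (over 3826 bases).

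KO ConA replicate 3 showed the same difference over 10065 genes (-0.04 among the shortest and -0.46 among the longest transcripts), yet it was lowest for 14 members and highest for 15. Its 11 shorter members had a median of 0.35 and its 23 longer members of -0.13. Without both libraries 32 of 34 members tested were called higher in WT and 30 of 33 in KO livers. The genotypes after ConA gave 0 calls among the 34 members. The interaction gave 4 calls: Herc6 higher and Dhx58, Isg15 and Ifi35 lower. This setting was chosen after the data were seen, and the share of all genes called in it is not given here.

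**Figure D5:**
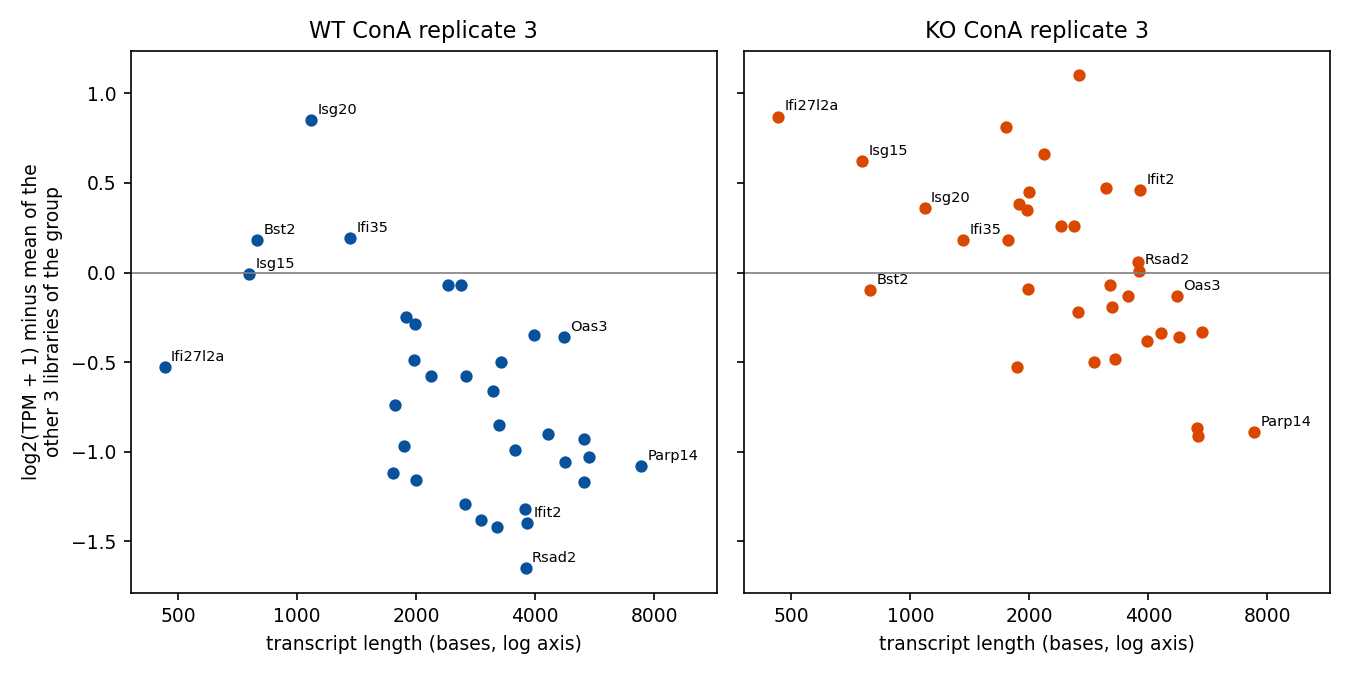
Log2(TPM + 1) of each of the 34 genes in WT ConA replicate 3 (left) and KO ConA replicate 3 (right), minus the mean of the other 3 libraries of the group, against transcript length in bases (log axis). In WT ConA replicate 3 all genes of 2000 bases or more lie below 0.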

How the data were processed

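Liver RNA of 14 mice was sequenced by the authors on a BGISEQ-500 (single-end, 50 bases), and 1 table of TPM per mouse was deposited. Per the labels, the processing notes name Bowtie2, RSEM 1.3.1 and build GRCm38.p6, while the study's methods name STAR and HTSeq, so the step behind the TPM values is not settled. Read depth is not given in the sources used here, and precision rests on the spread between mice. Groups came from the labels. The members and lists were chosen with earlier results of these data known.

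Pairwise comparisons used limma 3.58.1 in R 4.3.3 (lmFit, eBayes with trend) on log2(TPM + 1) with the libraries of both groups, and the interaction used all 14. Genes entered a test when 4 libraries (KO ConA against WT ConA) or 3 (otherwise) reached a TPM of 1. The procedure was tested on simulated data. Named were all members, genes of the upstream lists (1 of them is not reported here), and of the further lists the 3 with the smallest p in WT ConA against WT saline. Single-library values were printed for the largest changes, a called interaction and each family, and for Rsad2, Isg20, Trim30a, Dhx58 and Ifi27l2a after their values were seen.

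Alternative settings tried were a filter at TPM of 5 or none, a pseudocount of 0.1, rescaling by the median ratio, a robust eBayes, a replicate block, all 14 libraries in 1 fit, WT saline replicates 2 and 3 averaged and each library left out. Leaving out replicates 3 of both ConA groups was chosen after seeing the data. Transcript lengths and 50-base stretches came from the longest coding transcript of each gene (the longest of any kind where none codes) in GENCODE vM21 (96.0% of genes matched), and promoters from RefSeq. Figures used Python 3.11.15 and matplotlib 3.10.9.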

Additional observations from a re-analysis of the deposited data

Results flagged for a closer look

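In groups of 4 libraries, a value far from the other 3 was found in 6 of 70 sets checked (34 members and their mean, in each ConA group), where chance gives about 1 in 20. The last number given for each gene is the gap to the nearest library over the range of the group. It was computed on log2(TPM + 1), not on the TPM printed here, and passed Dixon's critical value for 4 samples. KO ConA replicate 3 was high for Oasl1 (39.12 TPM against 23.7 to 25.38, 0.864) and Oasl2 (25.27 against 17.36 to 18.47, 0.836) and low for Herc6 (24.79 against 31.22 to 32.71, 0.831). KO ConA replicate 4 was low for Oas1g (1.03 TPM against 2.39 to 2.65, 0.874), KO ConA replicate 1 was high for Cmpk2 (9.79 against 8.59 to 8.78, 0.834), and WT ConA replicate 1 was high for Dhx58 (17.81 against 13.7 to 14.22, 0.859). The interaction of genotype and ConA was called for Ifi35 (-0.78, limma, adjusted p 0.0258), with the smaller rise in KO livers. This call held in 16 of 22 alternatives and was lost with WT saline replicates 2 and 3 averaged. Of all genes tested 4.78% had a called interaction.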

How the results depend on the processing

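After ConA, 27 to 32 members were called in WT and 28 to 32 in KO livers. The counts of 27 and 28 came with a filter at TPM of 5, where 30 members were tested in each genotype. All calls were higher except that of Ifi27l2a, called lower in KO livers without KO saline replicate 2. In WT livers Ifi27l2a, uncalled, changed sign in 4 alternatives (0.18 to as low as -0.08). Of the 30 and 31 calls, 29 and 29 were made in every alternative that tested them, the exceptions being Rsad2 in WT and Dhx58 (without KO saline replicate 1) and Oas1g (without KO saline replicate 2) in KO livers. Calls were gained by Ifit3b, Ifih1 and Oas2 in WT and by Bst2 and Ifi27l2a in KO livers. KO ConA against WT ConA gave 1 call, Dhx58, with all 14 libraries in the fit and otherwise 0, and 18 uncalled members changed sign in at least 1 alternative.

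The saline comparison was the least stable. Against 6 calls (33 tested), it gave 0 with WT saline replicates 2 and 3 averaged and 0 with all 14 libraries in the fit. It gave 1 with no filter and 0 to 9 without 1 library. A filter at TPM of 5 gave 3 calls, but only 19 members were then tested. Against 1 call, the interaction gave 2 with a filter at TPM of 5 (31 members tested) and 0 with WT saline replicates 2 and 3 averaged. It gave 4 without replicates 3 of the ConA groups and 0 to 2 without 1 library. The shares of all genes called in these settings are not given here. The difference in mean level between KO ConA and KO saline was 2.10 with a pseudocount of 0.1, against 1.83. Rescaling moved the share of higher calls over all genes from 32.8% to 61.7% in KO saline against WT saline and from 80.0% to 58.6% in KO ConA against WT ConA.

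Same-numbered libraries of different groups came from different mice. Of 19 such pairs 8 had a correlation of deviations above 0.1 (-0.189 to 0.405), the highest between WT ConA replicate 3 and KO ConA replicate 3. A library correlated best with its own number in 13 of 38 cases. Each case offered 3 or 4 libraries, so some arise by chance, and the number expected was not computed. A replicate block raised the calls in the saline comparison to 12 and left the other counts at 30, 31, 0 and 1. TPM carry no depth, so limits of detection cannot be given.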

Other observations

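Several members differed widely between mice without ConA. Rsad2 ranged from 1.01 to 8.91 TPM, Isg20 from 4.97 to 21.8 TPM and Ifi27l2a from 8.91 to 24.1 TPM in KO saline livers, and KO saline replicate 1 was the highest for each. WT saline replicate 1 was the highest WT saline liver for these 3 genes and for Oas2 (2.75 TPM against 0.68 and 0.99). These genes were chosen after their values were seen, and no cause was tested.

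By level, Bst2 led the list in WT saline livers with a mean of 268 TPM, ahead of Ifi35 (43.9), Xaf1 (40.6) and Isg15 (34.4). In WT ConA livers Isg15 led with 652 TPM, ahead of Bst2 (416), Zbp1 (157) and Ifi35 (107). Oas3 was the lowest in both, with 0.210 and 1.63 TPM.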
